A study of Mus musculus with 6 samples.

Results

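The 10 genes described here encode proteins that carry phospholipids across the mitochondrial intermembrane space or that make cardiolipin and phosphatidylethanolamine (PE) in the inner membrane: *Prelid1*, *Prelid2*, *Prelid3a*, *Prelid3b*, *Triap1*, *Stard7*, *Pisd*, *Tamm41*, *Ptpmt1* and *Crls1*. They were chosen by name, as every locus of the count table that lists one of these symbols, and all 10 were found among its 51499 loci. WT MEFs, a mouse embryonic fibroblast line, received either siRNA against *Yme1l* or a scrambled control (Scr), and RNA was taken after 72 h from 3 independent cultures per group. Poly(A)-selected RNA was sequenced, and the libraries held between 37260605 and 45205207 counts on loci. Of the 51499 loci, 14499 had enough counts to be tested, and 9 of the 10 genes were among them.

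Both groups share the same genetic background. For the immortalized WT MEFs used beside *Yme1l* knockout MEFs, the methods give an origin from *Yme1l* loxP/loxP animals. Individual clones were expanded after Cre transduction, and those that kept the loxP alleles counted as WT. The methods do not state that the cultures described here came from that line. The methods name SV40 large T antigen as the immortalizing agent, whereas the sample labels name 3T3 immortalization. The list of siRNA sequences to which the methods refer was not used here.

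Cardiolipin is made inside mitochondria from phosphatidic acid, which must first cross from the outer to the inner membrane. PRELID1 carries phosphatidic acid on this route and PRELID3B carries phosphatidylserine, and both need the small partner TRIAP1 for their stability and activity. TAMM41 then forms CDP-diacylglycerol, PGS1 and PTPMT1 form phosphatidylglycerol, and CRLS1 joins these into cardiolipin, while PISD decarboxylates phosphatidylserine to PE. STARD7 carries phosphatidylcholine, the main phospholipid that mitochondria have to import. YME1L is an ATP-dependent protease of the inner membrane that degrades PRELID1 protein, and the levels of messenger RNA given here are not levels of these proteins.

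*Prelid1*, *Prelid3b* and *Crls1*, 3 of the genes that later passed the test, carry short sequence matches before their start sites, and 1 stretch of each is shown because these genes moved in the same direction. Upstream windows of 250 bases from RefSeq (GRCm38.p6) were examined for 7 of the 10 genes and for 4 of the 6 genes that rose, *Triap1* being the fourth. Each stretch below is 30 bases long, and capitals mark either the letters CCGGAAG of an ETS motif, which read CTTCCGG on the other strand, or the E-box CACGTG.
Prelid1, chr13:55321969-55321998, plus strand: cggtCACGTGacgcgggcgCCGGAAGtggc
Prelid3b, chr2:174472982-174473011, minus strand: gcgggatggcaCTTCCGGgcgtcctagcgc
Crls1, chr2:132846451-132846480, plus strand: gcttcctgtggcCACGTGgcactcgctctt

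The matches of *Prelid1* began 82, 67 and 37 bases before the RefSeq start, that of *Prelid3b* 59 bases before it and that of *Crls1* 203 bases before it. *Prelid1* and *Prelid3b* have earlier starts in the GENCODE M21 annotation (mm10), where their stretches fall on noncoding exon sequence of the same gene. The *Crls1* stretch lies ahead of the annotated gene, in an intron of *Gm14104*, an antisense gene on the other strand. ETS letters stood in the windows of 2 of the 4 genes that rose and were examined, against 6.91% of 32851 RefSeq windows of this length. The E-box stood in 2 of the 4, against 6.02%. *Prelid3a*, the gene with the largest rise, is not among the 4. Its upstream sequence was left out of the search by choice, as was that of *Prelid2*, so the counts say nothing about it. For *Tamm41*, which also rose, no usable window was found. The 4 are genes, and *Crls1* had more than 1 window, whereas the percentages are of windows. An ETS match also stood 85 bases before 1 of the RefSeq starts of *Pisd*, which was not called. The core letters TGCGCA of an NRF1 site (6.43% of windows), ATGGCGG of a YY1 site (2.21%) and TGATGCA of an ATF4 site (2.68%) were found in 0 of the 4, searched on both strands, and no matches overlapped. These motifs were picked after the sequences had been seen, so the counts are no test against the percentages. The percentages also cover all RefSeq windows of this length, whether or not the gene was tested here. A match of letters is a description only.

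Of the 9 genes tested, 6 were higher after *Yme1l* siRNA and 0 were lower: *Prelid3a*, *Tamm41*, *Crls1*, *Triap1*, *Prelid1* and *Prelid3b*. The loss of *Yme1l* message was accompanied by a change in a large part of the transcriptome, since 28.4% of all loci tested were called higher and 29.6% lower by edgeR's quasi-likelihood test at a Benjamini-Hochberg adjusted p under 0.05. At an unadjusted p under 0.05 in the same edgeR test the counts were also 6 and 0. Of all 14499 loci tested, 4450 were higher and 4641 lower at that unadjusted threshold. *Prelid3a* stood 73.3% higher in the mean, and the other 5 stood 12.2% to 22.3% higher. *Prelid2*, *Stard7* and the locus that holds *Pisd* were not called, and *Ptpmt1* was listed at 0 counts in every library. For all 6 called genes every *Yme1l* siRNA culture lay above every Scr culture, a separation that 31.9% of all loci tested also showed in this direction.

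**Figure D1:**
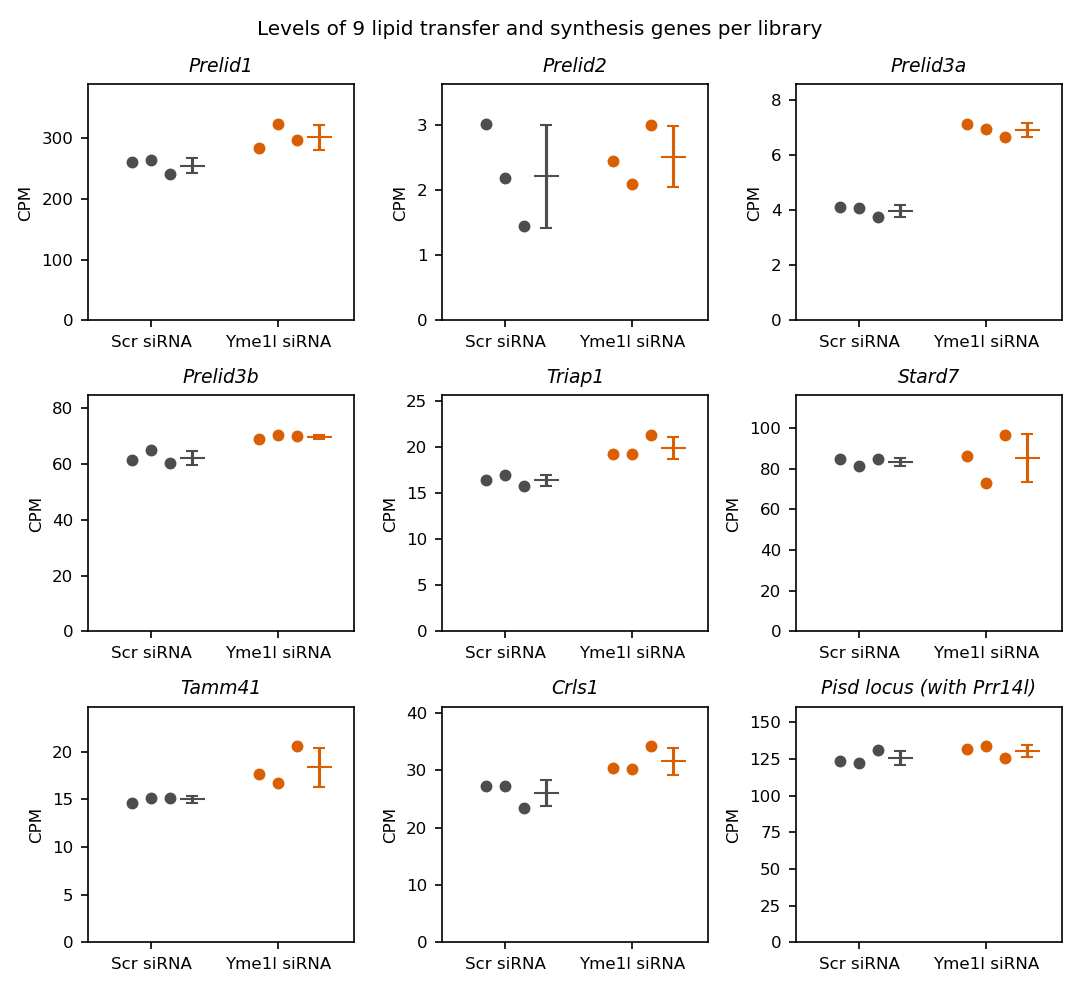
Levels of the 9 genes with counts, as CPM, counts relative to the TMM-scaled library size, in the 3 Scr siRNA (grey) and 3 Yme1l siRNA (orange) cultures, one panel per gene with its own axis from 0. Points are cultures in replicate order, and the bar beside each group is its mean with the SD; the groups are apart for Prelid1, Prelid3a, Prelid3b, Triap1, Tamm41 and Crls1 and overlap for Prelid2, Stard7 and the Pisd locus.

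The targeted gene, listed as *Yme1l1*, stood at 170 CPM, 171 CPM and 171 CPM in the Scr cultures and at 31.6, 23.4 and 45.04 CPM in the *Yme1l* siRNA cultures. CPM are counts per 1000000 counts of a library after TMM scaling. The *Yme1l* siRNA cultures were apart from the Scr cultures and fell by 2.36 on the log2 scale (SE 0.20, edgeR adjusted p = 3.87e-05), and *Yme1l* siRNA 3 kept the most message. In such bulk samples, fewer cells that express a gene and less RNA per cell cannot be told apart. The fibroblast identity of the cultures rested on abundant collagen, fibronectin and vimentin transcripts. Of 8 fibroblast markers 7 were tested, 0 were higher and 6 were lower with a median log2 fold change of -0.78, and their summed level lay between 33446 and 40597 CPM in Scr and between 17963 and 22398 CPM after *Yme1l* siRNA, while *Thy1* had at most 1 count in any library. The summed level of 8 markers of epithelial, leukocyte, endothelial and muscle cells lay between 0.379 and 0.610 CPM in Scr and between 1.06 and 1.42 CPM after *Yme1l* siRNA, with *Adgre1* and *Myod1* at 0 throughout. The part of this shift of the marker genes in the values below was not tested.

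Among the transfer proteins of the PRELI family, *Prelid3a* changed most. PRELID3A is a further partner of TRIAP1 that can carry phosphatidic acid. The Scr cultures had 4.13, 4.10 and 3.74 CPM (179, 148 and 158 counts) and the *Yme1l* siRNA cultures had 7.15, 6.95 and 6.67 CPM (317, 302 and 281 counts). Every *Yme1l* siRNA culture thus lay well above the highest Scr culture, and within each group the cultures lay close together. The mean was 3.99 ± 0.216 CPM in Scr and 6.92 ± 0.240 CPM after *Yme1l* siRNA (SD, n = 3 per group), and the gene rose by a log2 fold change of 0.79 (SE 0.12, 95% interval 0.51 to 1.08, edgeR adjusted p = 0.000746). *Prelid3a* was the only one of the 6 genes to keep its call in all 15 alternative settings of the processing, among them each omission of a single library. The gene lies on chromosome 18 of mm10, between 67464866 and 67479835, and was one of the least expressed of the 10 in both groups.

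*Prelid1*, by far the most abundant of the family, showed a smaller difference. Its levels were 260.1, 263 and 240.0 CPM in Scr and 283, 323 and 296 CPM after *Yme1l* siRNA. The lowest *Yme1l* siRNA culture lay just above the highest Scr culture. The mean was 254 ± 12.5 CPM in Scr and 301 ± 20.5 CPM after *Yme1l* siRNA (SD, n = 3 per group), and the gene rose by a log2 fold change of 0.24 (SE 0.077, 95% interval 0.07 to 0.42, edgeR adjusted p = 0.0252). With 1 library left out, the edgeR adjusted p ranged from 0.0342 to 0.0806, and the call was lost without Scr 1, Scr 2, Scr 3 or *Yme1l* siRNA 2, with log2 fold changes from 0.19 to 0.29 over the 6 omissions.

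The counts of *Prelid1* carry a further limit. The gene, at 55320500 to 55325272 on chromosome 13 of mm10, shares 1258 of its 2726 exonic bases with *Rab24* and 105 with *Mxd3*, both on the other strand. The methods name a stranded mRNA library kit, but whether the counting used the strand is not given in the sources used here. *Rab24*, a small GTPase, moved the other way: its counts of 1972, 1750 and 2105 in Scr and 1345, 1492 and 1343 after *Yme1l* siRNA fell by 0.58 on the log2 scale (SE 0.074, edgeR adjusted p = 0.000266). *Mxd3*, a MAX-binding repressor, rose by 0.95 on this scale (SE 0.088, edgeR adjusted p = 5.07e-05) from a mean of 12.5 to 24.2 CPM. The part of either neighbour in the *Prelid1* value was not tested. A processed copy of *Prelid1*, *Gm11605*, is 96.2% identical over 655 bases and had 8 to 27 counts per library against 9491 to 14042 for *Prelid1*.

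*Prelid3b* showed the smallest of the called differences. Scr cultures had 61.3, 65.0 and 60.2 CPM, and *Yme1l* siRNA cultures had 68.9, 70.4 and 69.9 CPM. The groups were apart, and the *Yme1l* siRNA cultures differed from each other by little, with a coefficient of variation of 1.08%. The mean was 62.2 ± 2.53 CPM in Scr and 69.7 ± 0.751 CPM after *Yme1l* siRNA (SD, n = 3 per group), and the gene rose by a log2 fold change of 0.17 (SE 0.062, 95% interval 0.02 to 0.31, edgeR adjusted p = 0.0470). The call was the least stable of the 6, being lost without any single one of the 6 libraries, where the edgeR adjusted p lay between 0.0600 and 0.164, without the low count filter, where it was 0.156, and with the DESeq2 test, where it was 0.0601.

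*Prelid2*, a family member whose cargo is less well defined, was not called. Its counts were 131, 79 and 61 in Scr and 109, 91 and 127 after *Yme1l* siRNA, or 3.03, 2.19 and 1.45 CPM against 2.46, 2.09 and 3.01 CPM. Scr 1 was the highest and Scr 3 the lowest of all 6, so that the *Yme1l* siRNA cultures fell within the range of the controls. The log2 fold change of 0.18 had a 95% interval from -0.46 to 0.82 (SE 0.28, edgeR adjusted p = 0.600), and differences of either sign within these limits were not resolved. The Scr cultures of *Prelid2* had a coefficient of variation of 35.6% at 61 to 131 counts, against 5.41% for those of *Prelid3a* at 148 to 179 counts.

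*Triap1*, whose product is the shared partner of the PRELI proteins, was also higher. The Scr cultures had 16.4, 16.9 and 15.8 CPM, and the *Yme1l* siRNA cultures had 19.2, 19.2 and 21.3 CPM. The groups were apart, with *Yme1l* siRNA 3 the highest. The mean was 16.4 ± 0.576 CPM in Scr and 19.9 ± 1.2 CPM after *Yme1l* siRNA (SD, n = 3 per group), and the gene rose by a log2 fold change of 0.28 (SE 0.083, 95% interval 0.09 to 0.47, edgeR adjusted p = 0.0181). Leaving out Scr 1 gave an edgeR adjusted p of 0.0579 and leaving out *Yme1l* siRNA 3 gave 0.0508, and the call held without any one of the other 4 libraries.

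*Stard7* was not called. STARD7 belongs to another family, the START domain proteins, and is sorted between cytosol and mitochondria by the protease PARL. Its levels were 84.5, 81.1 and 84.6 CPM in Scr and 86.0, 72.8 and 96.6 CPM after *Yme1l* siRNA. The *Yme1l* siRNA cultures lay on both sides of the Scr cultures and had a coefficient of variation of 14.0%, against 2.37% in Scr. The log2 fold change was 0.03 (SE 0.10, 95% interval -0.20 to 0.26, edgeR adjusted p = 0.822), an interval whose upper bound is near the difference seen for *Prelid1* and *Triap1*.

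Of the cardiolipin enzymes, *Tamm41* and *Crls1* were higher. *Tamm41* encodes the CDP-diacylglycerol synthase of the inner membrane, which uses the phosphatidic acid that PRELID1 delivers. Its levels were 14.6, 15.2 and 15.2 CPM in Scr and 17.7, 16.7 and 20.6 CPM after *Yme1l* siRNA. The Scr cultures were nearly alike, and the *Yme1l* siRNA cultures were spread over a wider range above them. The mean was 15 ± 0.328 CPM in Scr and 18.3 ± 2.02 CPM after *Yme1l* siRNA (SD, n = 3 per group), and the gene rose by a log2 fold change of 0.29 (SE 0.099, 95% interval 0.07 to 0.52, edgeR adjusted p = 0.0324). Without Scr 1, Scr 2, Scr 3, *Yme1l* siRNA 1 or *Yme1l* siRNA 3 the call was lost, with edgeR adjusted p values up to 0.104, and without *Yme1l* siRNA 3 the log2 fold change was 0.20. Without the low count filter the edgeR adjusted p was 0.0522.

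*Crls1* encodes cardiolipin synthase, which joins CDP-diacylglycerol and phosphatidylglycerol. Scr cultures had 27.2, 27.2 and 23.3 CPM, and *Yme1l* siRNA cultures had 30.3, 30.1 and 34.2 CPM. Scr 3 was the lowest and *Yme1l* siRNA 3 the highest, and the groups were apart. The mean was 25.9 ± 2.25 CPM in Scr and 31.5 ± 2.32 CPM after *Yme1l* siRNA (SD, n = 3 per group), and the gene rose by a log2 fold change of 0.28 (SE 0.091, 95% interval 0.07 to 0.49, edgeR adjusted p = 0.0266). Leaving out Scr 3 gave an edgeR adjusted p of 0.0787 and a log2 fold change of 0.21, and leaving out *Yme1l* siRNA 3 gave 0.0744 and 0.22.

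*Ptpmt1*, which encodes the phosphatase that forms phosphatidylglycerol, was listed at 0 counts in all 6 libraries and at 0 FPKM in the authors' own table. *Kbtbd4*, which shares 1657 of the 3684 exonic bases of *Ptpmt1* on the other strand, was also listed at 0. So was *Ndufs3*, a gene of the same region that encodes a complex I subunit used by every respiring cell. The zeros of *Ptpmt1* are therefore given as listed, and no statement on its expression is made from them.

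The locus that lists *Pisd* joins it with *Prr14l* and *Gm20671*, so its counts are the sum of the 3 names and cannot be told apart. PISD makes PE in the inner membrane from the phosphatidylserine that PRELID3B delivers. The locus had 123, 122 and 131 CPM in Scr and 132.0, 134 and 126 CPM after *Yme1l* siRNA. Scr 3 lay within the *Yme1l* siRNA range, and the groups overlapped. The log2 fold change of 0.06 had a 95% interval from -0.09 to 0.21 (SE 0.066, edgeR adjusted p = 0.485), for the joined locus. Near-identical copies of the gene elsewhere, *Pisd-ps1* and *Pisd-ps2*, had 46 to 123 counts per library, against 4409 to 5855 for the joined locus.

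**Figure D2:**
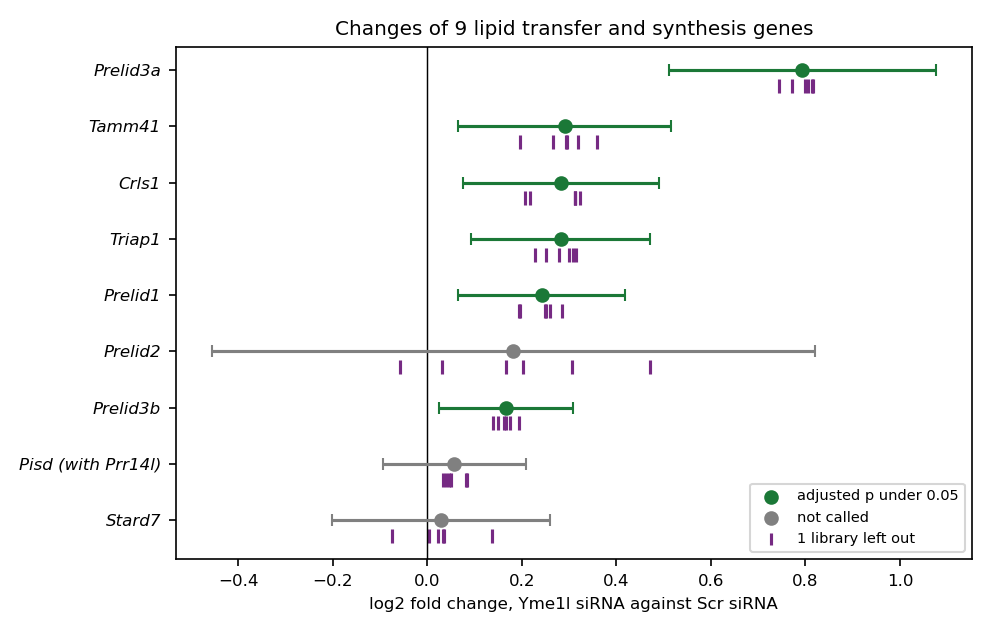
Log2 fold change of Yme1l siRNA against Scr siRNA for the 9 genes tested, with the 95% interval (points and bars; green, adjusted p under 0.05; grey, not called) and the 6 values obtained with 1 library left out (purple ticks). Prelid3a stands alone near 0.79, 5 called genes lie between 0.17 and 0.29, and the ticks of Prelid2 and Stard7 reach below 0.

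The size of the differences was small for most of the 10 genes. The 6 called genes had a median log2 fold change of 0.28, against 0.65 for the 4123 loci called higher. Of the 6, 5 had a log2 fold change under 0.3, which 11.7% of the loci called higher also had. Across all loci tested the median log2 fold change was 0.01, so the values are given against a centre close to 0. The RLE and upper-quartile scalings moved the log2 fold changes upward, by at most 0.019 in the median. Unscaled library totals moved every log2 fold change upward by 0.065. Because all these shifts were upward, they could not turn the 6 called genes negative, and their signs are no check on the scaling.

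Per kilobase of exon, the order of the genes in the Scr cultures was led by *Prelid1* at 93.3 ± 4.596 CPM per kilobase (SD, n = 3), followed by *Prelid3b* at 33.4 ± 1.36. *Triap1* (15.1 ± 0.530), *Stard7* (14.99 ± 0.355) and *Crls1* (12.5 ± 1.08) came next, all in CPM per kilobase. Levels of *Triap1* and *Stard7* overlapped between Scr cultures and could not be ordered. Below these stood the joined *Pisd* locus at 7.77 ± 0.291, *Tamm41* at 2.84 ± 0.0622, *Prelid2* at 1.89 ± 0.673 and *Prelid3a* at 1.25 ± 0.0675 CPM per kilobase, of which *Prelid2* and *Prelid3a* again overlapped. After *Yme1l* siRNA, the mean level of *Prelid3a* was 2.16 CPM per kilobase and that of *Prelid2* was 2.15.

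The authors' FPKM, given as 1 value per group with transcripts weighted by their program, placed *Prelid1* first (191 FPKM in Scr), then *Prelid3b* (48.8 FPKM), with *Prelid2* (3.99 FPKM) and *Prelid3a* (1.95 FPKM) last. The genes between them stood in another order: the *Pisd* locus was number 3 at 40.8 FPKM and *Tamm41* number 6 at 16.3 FPKM, against numbers 6 and 7 per kilobase of annotated exon. On both scales the transcripts of *Prelid1* exceeded those of their obligate partner gene *Triap1* several times, 93.3 against 15.1 CPM per kilobase.

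The balance between partner genes was examined as a log2 ratio of counts within each library, a measure that no scaling of the library can move. The log2 ratio of *Prelid1* to *Triap1* was 3.98, 3.96 and 3.93 in Scr and 3.88, 4.07 and 3.80 after *Yme1l* siRNA. The groups overlapped, with a mean difference of -0.04 (two-sided exact permutation p = 0.7). For *Prelid3b* to *Triap1* the log2 ratio was 1.897, 1.94 and 1.93 in Scr and 1.84, 1.87 and 1.71 after *Yme1l* siRNA. All *Yme1l* siRNA cultures lay below all Scr cultures, by 0.11 in the mean (exact permutation p = 0.1, adjusted p = 0.25 over 5 ratios), and 3 cultures against 3 cannot give a p below 0.1. The log2 ratio of *Prelid1* to *Prelid3b* was 2.03 ± 0.0475 in Scr and 2.11 ± 0.0831 after *Yme1l* siRNA (SD, n = 3 each, exact permutation p = 0.3), with overlapping groups.

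Between the enzymes, *Tamm41* to *Crls1* gave log2 ratios of -0.90, -0.84 and -0.62 in Scr and -0.78, -0.85 and -0.73 after *Yme1l* siRNA. The means were -0.79 and -0.78, and the Scr cultures covered the whole range of the *Yme1l* siRNA cultures (exact permutation p = 1). The joined *Pisd* locus against *Crls1* gave log2 ratios of 2.18, 2.17 and 2.49 in Scr and 2.12, 2.15 and 1.88 after *Yme1l* siRNA. The groups were apart by a narrow gap and differed by -0.23 in the mean (exact permutation p = 0.1, adjusted p = 0.25 over 5 ratios). None of the 5 ratios passed the adjustment, and the ratio of *Ptpmt1* to *Crls1* could not be formed from zeros.

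**Figure D3:**
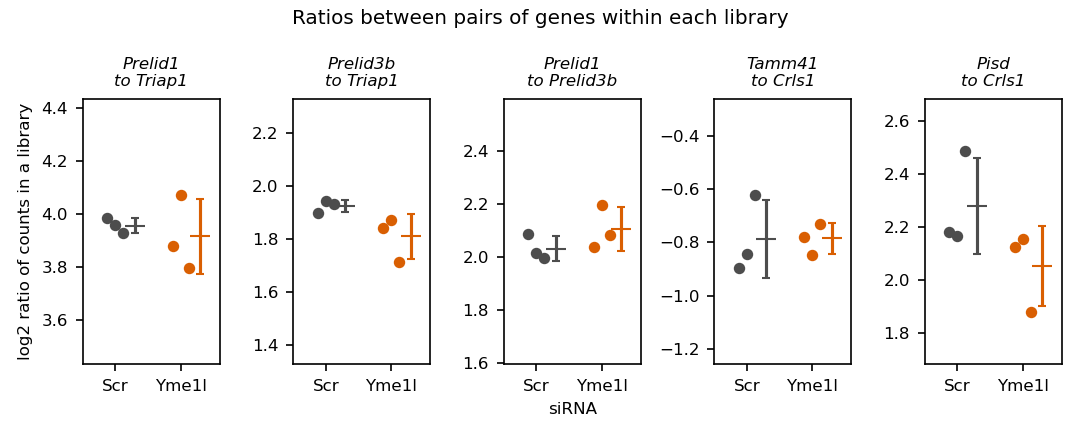
Log2 ratios of the counts of 2 genes within each library, for 5 pairs, in the Scr siRNA (grey) and Yme1l siRNA (orange) cultures. Each panel has its own axis of equal length, points are cultures and the bar is the mean with the SD; the groups are apart for Prelid3b to Triap1 and for the Pisd locus to Crls1 and overlap for the other 3 pairs.

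The other genes of the cardiolipin pathway moved in both directions. Of 19 genes listed for its synthesis, remodelling and turnover, 16 were tested, 7 were higher and 7 lower, with a median log2 fold change of 0.19 against 0.01 for all loci. Among all loci tested, 28.4% were higher and 29.6% lower. *Pgs1*, which makes the phosphatidylglycerol phosphate that PTPMT1 and CRLS1 use further, rose by a log2 fold change of 0.46, with 98.0 ± 5.21 CPM in Scr and 135 ± 1.604 CPM after *Yme1l* siRNA (SD, n = 3 per group, edgeR adjusted p = 0.000548). Upstream, the outer membrane acyltransferase gene *Gpam* fell by 1.25 on the log2 scale (edgeR adjusted p = 0.000282), *Agpat5*, for a lysophosphatidic acid acyltransferase, rose by 0.47 (edgeR adjusted p = 0.000979), and *Cds2*, for the CDP-diacylglycerol synthase of the ER, fell by 0.38 (edgeR adjusted p = 0.00339). The ER enzyme gene *Cds2* and its mitochondrial counterpart *Tamm41* thus had log2 fold changes of -0.38 and 0.29.

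Downstream of *Crls1*, 4 of the listed genes for remodelling and breakdown were lower, while other genes of the list rose. *Taz*, which encodes the transacylase tafazzin, fell by 0.66 on the log2 scale (edgeR adjusted p = 0.000103), and the gene of the mitochondrial phospholipase *Pnpla8* fell by 0.91 (edgeR adjusted p = 6.75e-05). *Pla2g6*, another phospholipase gene, and *Hadha*, whose product also reacylates monolysocardiolipin, fell by 0.35 each (edgeR adjusted p = 0.00427 and 0.00226). The remodelling gene *Lclat1* had a log2 fold change of 0.18 and was not called (edgeR adjusted p = 0.0667). Also in this list, *Serac1* and *Dnajc19* rose by 0.44 and 0.34 (edgeR adjusted p = 0.0120 and 0.0253). *Serac1* shares 297 of its 4576 exonic bases with *Synj2* and *Dnajc19* shares 178 of 4027 with *Fxr1*, each neighbour on the other strand. *Synj2* and *Fxr1* had 10877 and 38770 counts in total, against 2466 and 4882 for the listed genes. Their part in these values was not tested. *Plscr3* fell by 0.38 (edgeR adjusted p = 0.0409), with overlapping groups. Higher were genes of the scaffolds that organize cardiolipin in the inner membrane: *Phb* rose by 0.79 (edgeR adjusted p = 5.70e-05), its partner *Phb2* by 0.30 (edgeR adjusted p = 0.00742) and *Stoml2* by 0.49 (edgeR adjusted p = 0.00220). *Phb*, *Pnpla8* and *Taz* had the smallest adjusted p of this list, and the others were named after their values were seen.

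In the cytosolic and ER routes to PE, phosphatidylserine and phosphatidylcholine, 12 of 13 genes were tested, 3 were higher and 6 lower, with a median log2 fold change of -0.24. The shares over all loci tested were 28.4% higher and 29.6% lower. In the ethanolamine branch, which makes PE without PISD, the first kinase gene *Etnk1* rose by 0.45 on the log2 scale (edgeR adjusted p = 0.000728), whereas the later genes *Pcyt2*, *Selenoi* and *Cept1* fell by 0.35, 0.59 and 0.40 (edgeR adjusted p = 0.00221, 0.00200 and 0.000746). *Ptdss1* and *Ptdss2*, whose products make the phosphatidylserine that PRELID3B carries, were not called, with log2 fold changes of 0.07 (95% interval -0.07 to 0.20) and -0.06 (95% interval -0.22 to 0.10). Of the phosphatidylcholine genes, the kinase gene *Chka* rose by 0.98 (edgeR adjusted p = 0.000391) and *Pemt*, for the enzyme that methylates PE, by 1.01 from a low level (edgeR adjusted p = 0.00153), while *Chkb*, counted together with *Cpt1b*, *Pcyt1a* and *Pcyt1b* fell by 0.38, 0.32 and 0.92 (edgeR adjusted p = 0.00252, 0.00261 and 0.00207). *Chka*, *Etnk1* and *Cept1* had the smallest adjusted p in this list, and the others were named with their values known.

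**Figure D4:**
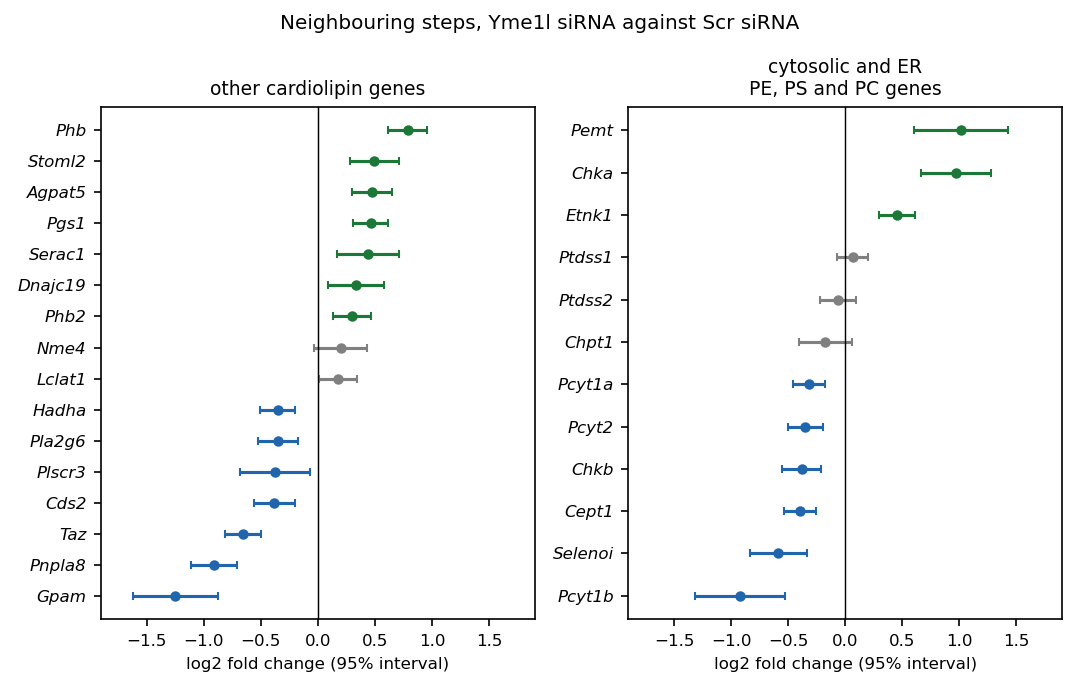
Log2 fold change of Yme1l siRNA against Scr siRNA with its 95% interval for the tested genes of the other cardiolipin steps (left, 16 genes) and of the cytosolic and ER routes to PE, PS and PC (right, 12 genes), where PS is phosphatidylserine and PC phosphatidylcholine. Green genes were higher and blue genes lower at an adjusted p under 0.05, and grey genes were not called; 7 genes are green and 7 blue on the left, 3 green and 6 blue on the right.

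Among the proteases that act on the transfer proteins or beside YME1L, *Afg3l2* and *Oma1* changed in opposite directions. *Afg3l2*, for a subunit of the m-AAA protease on the matrix side, rose by a log2 fold change of 0.73, with 56.8 ± 2.57 CPM in Scr and 94.1 ± 3.86 CPM after *Yme1l* siRNA (SD, n = 3 per group, edgeR adjusted p = 5.50e-05). *Oma1*, for the stress-activated peptidase that cleaves OPA1, fell by 0.45 on the log2 scale from 7.64 to 5.59 CPM (edgeR adjusted p = 0.0261), a call lost without Scr 2, Scr 3, *Yme1l* siRNA 1 or *Yme1l* siRNA 2, with edgeR adjusted p values up to 0.0793. *Parl*, whose product processes STARD7, had a log2 fold change of 0.18 (edgeR adjusted p = 0.0492), and the call was lost without any one of the 6 libraries, with edgeR adjusted p values up to 0.147. It was also lost with all libraries kept, at an adjusted p of 0.0695 with DESeq2, 0.0545 with limma-voom, 0.136 without the low count filter and 0.0523 without mtDNA loci (the last 2 by edgeR). *Immp2l*, for an inner membrane peptidase, stood at 2.34 and 1.71 CPM in the mean and was not called (log2 fold change -0.45, edgeR adjusted p = 0.128). *Spg7*, for the second m-AAA subunit, was not analysed here.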

How the data were processed

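RNA-seq of WT MEFs, 3 Scr siRNA and 3 *Yme1l* siRNA cultures, was analysed. By the methods and the submitters' processing notes, the authors mapped reads to mm10 with HISAT2 2.0.4, assembled transcripts with StringTie 1.3.3 and compared groups with Cuffdiff 2.2.1. The deposited counts are raw reads per locus, and the program and strand setting that made them are not given in the sources used here. The authors' second table holds FPKM per group, used only for levels, and their own fold changes, test statistics, p-values and q-values, which were not used.

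Loci were filtered with filterByExpr (minimum 10 counts, 15 in total), scaled by TMM and tested with edgeR 4.0.16 in R 4.3.3 (quasi-likelihood, no covariates). Benjamini-Hochberg adjustment ran over all 14499 loci, with a threshold of 0.05. The standard error is the log2 fold change divided by the square root of F. Alternatives were DESeq2 1.42.0, limma-voom (limma 3.58.1), other scalings and filters, a threshold of 0.01, the replicate block, removal of mtDNA loci and each library left out in turn. CPM of unscaled library totals was added after seeing the data. Ratios were compared by two-sided exact permutation tests in scipy 1.17.1.

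Within a group, libraries differed beyond counting noise (chi-square per degree of freedom 9.99 to 73.8), and all 6 were counted as separate cultures. Coordinates, exonic lengths and overlaps came from GENCODE M21 (mm10), near-identical copies from BLAST 2.17.0 and upstream windows from RefSeq (GRCm38.p6). The genes and lists were chosen with earlier results of these data known. Named were the 10 genes, *Yme1l1*, from each list the 3 genes of smallest adjusted p, all listed proteases and genes that overlap or copy the 10; other names were added after their values were seen. The edgeR, DESeq2 and limma-voom tests were also run on simulated counts of 14499 loci, of which 200 were changed 2-fold. There edgeR recovered 160 of the 200 and made 14 false calls. Changes as small as those of most of the called genes were not simulated. Nor was a change in as many loci as were called in the data, where 28.4% were higher and 29.6% lower. The recovery and the false calls therefore do not carry over to the data. Python 3.11.15 with numpy 2.4.6, pandas 2.3.3 and matplotlib 3.10.9 made the tables and figures.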

Additional observations from a re-analysis of the deposited data

How the results depend on the processing

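The number of the 10 genes called higher ranged from 2 to 4 with 1 library left out, against 6 with all libraries (2 without Scr 1, Scr 3 or *Yme1l* siRNA 3, 3 without Scr 2), and was 1 at a threshold of 0.01, where *Prelid3a* kept its call. Of all loci tested, 23.3% to 27.9% were called higher with 1 library left out and 20.3% at a threshold of 0.01, against 28.4%. DESeq2 and the replicate block called 5 each (28.2% and 29.2% of all loci), and a test without the low count filter called 4 (17.9% of all its loci). The number was 6 with limma-voom (28.1% of all loci) and with the RLE and upper-quartile scalings (28.7% and 29.4%). It was also 6 with a filter at a mean of 50 counts (31.6%) and with the removal of mtDNA loci (28.4%). Of the 10 genes, 0 were called lower in any of these settings. With unscaled library totals, the log2 fold changes of the 9 genes lay between 0.08 and 0.86. *Prelid2* ranged from -0.057 to 0.47 and *Stard7* from -0.074 to 0.14 over the omitted libraries, so their sign was not fixed. The log2 ratio difference of *Prelid1* to *Triap1* ranged from -0.12 to 0.018, and that of *Tamm41* to *Crls1* from -0.053 to 0.085. The cause was not tested. Of the other values of single genes with a p-value under an alternative, 523 kept their direction and their side of the threshold and 45 lost a call with the same direction. A further 39 values of genes and ratios without a p-value kept their direction. Part of these could not have changed it: a ratio difference under the replicate block equals the main value, and unscaled totals only moved values upward.

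Genes of contact sites and the MICOS complex called higher numbered 1 at a threshold of 0.01, and 1 without Scr 1 or without *Yme1l* siRNA 1, against 3. In these settings 20.3%, 23.7% and 23.5% of all loci were called higher. Those called lower numbered 3 at that threshold and 3 without Scr 3, against 5. Without Scr 3, 4069 of all 14836 loci tested were called lower. The share of all loci called lower at a threshold of 0.01 is not given here. Same-numbered cultures had correlations of 0.0905, 0.167 and 0.255 between their deviations from the group means, the labels do not say that a number is shared, and the cultures were not treated as pairs; with the replicate number as a block, 5 of the 10 genes were called higher, and the edgeR adjusted p of *Prelid3b* was 0.0544 and that of *Parl* 0.0641. At the 61 to 131 counts of *Prelid2*, counting error alone is 8.74% to 12.8% of a value, below the spread of its Scr cultures.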

Other observations

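Genes of lipid transport at contact sites between the ER and mitochondria and of the MICOS complex, which holds the necks of the cristae, had calls in both directions. Of 20 genes, all tested, 3 were higher and 5 lower, with a median log2 fold change of 0.01, the same to 2 decimals as that of all loci, of which 28.4% were higher and 29.6% lower. *Apool*, which encodes the cardiolipin-binding MICOS subunit MIC27, fell by 1.12 on the log2 scale (edgeR adjusted p = 5.88e-05), from 12.9, 14.6 and 13.7 CPM in Scr to 6.31, 5.94 and 6.72 CPM after *Yme1l* siRNA. *Micos13*, for a further MICOS subunit, fell by 0.69 (edgeR adjusted p = 0.000123), from 68.9 ± 4.54 to 42.8 ± 2.47 CPM (SD, n = 3 each). *Vapb*, for a tether protein of the ER, rose by 0.40 (edgeR adjusted p = 0.00117), from 102 ± 5.43 to 135 ± 2.41 CPM. *Apool* and *Micos13* lay below, and *Vapb* above, the Scr range in all 3 *Yme1l* siRNA cultures. The core MICOS subunit gene *Immt* had a log2 fold change of 0.06 (95% interval -0.18 to 0.30, edgeR adjusted p = 0.633) and was not called; it was named after its values were seen. Without Scr 1 or without *Yme1l* siRNA 1 the number called higher in this list was 1, where 23.7% and 23.5% of all loci were higher. Without Scr 3 the number called lower was 3, where 4069 of all 14836 loci tested were lower.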
